A study of Mus musculus with 6 samples.

Results

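The Polycomb and H3K27 demethylase mRNAs described here are 36 genes chosen by name: the subunits and partners of Polycomb repressive complexes 2 and 1 (PRC2 and PRC1), the subunits of the Polycomb deubiquitinase PR-DUB, and the enzymes that remove methyl groups from lysine 27 of histone H3. They are 36 of the 46072 genes in the tables of the single libraries, and all 36 are annotated as protein-coding. RNA immunoprecipitation and sequencing (RIP-seq), which reads the RNA held by an antibody and its protein, was performed on left ventricles of male mice aged 10 weeks, in a Sham group that received saline and in groups that received angiotensin II (AngII) from an osmotic minipump at 1 mg/kg/min for 4 h or 24 h. Each group had a library from an antibody against EZH2 and a library from normal IgG, 6 libraries in all, and each library was made from 2 mixed RIP products, with 2 mice assigned to each group. The strain label was C57BL/6 for the 3 IgG libraries and the Sham anti-EZH2 library, while the AngII 4 h and 24 h anti-EZH2 libraries carried the labels C57BL/7 and C57BL/8, for which no source used here gives a reason, and the Sham libraries were labelled untreated.

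PRC2 places methyl groups on lysine 27 of histone H3 through EZH2 or its paralogue EZH1, and EED and SUZ12 are needed for that activity. PRC1 places ubiquitin on histone H2A through RING1 or RNF2, and a PCGF protein beside them decides which form of PRC1 is built, while CBX proteins of the canonical form read the methylated lysine. KDM6A and KDM6B remove the methyl groups, and PR-DUB removes the ubiquitin. EZH2 is the protein that the antibody held, and these mRNAs encode the protein itself, its partners and the enzymes that oppose it, so that a level in an IgG library describes RNA that came down without a specific antibody, and a level in an anti-EZH2 library describes RNA that came down with EZH2 or in the same unspecific way.

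Values are FPKM, a measure of sequenced fragments that takes account of transcript length and of library size, and are given in the order Sham, 4 h and 24 h. With 1 library for each group and antibody there was no replicate within a group, so no ratio of a single group could be tested and each value describes the library it came from. What could be tested, the mean difference between antibodies over the 3 groups, is given after the counts. A fit of the times over the antibodies is given too, but it has no repeat over animals and serves as a description. A relative ratio is the anti-EZH2 FPKM over the IgG FPKM of a group, divided by the median of that quotient over 4846 genes above 1 FPKM in all 6 libraries. That median was 0.822, 0.925 and 0.653, and on the log2 scale −0.28, −0.11 and −0.62. A relative change is a time point over Sham for 1 antibody, divided by its median in the same way. Folds were read only for genes with a mean of at least 1 FPKM over the 6 libraries, and a gene was called past 2-fold above 2 or below 0.5.

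The libraries held from 3.81 to 7.97 fragments in units of 10 to the power of 6, as inferred from the step between low FPKM values of genes with 1 transcript. The 8 cardiomyocyte markers together were between 5418 and 9599 FPKM, as the labelled tissue would have. Other markers moved between libraries: the 4 atrial markers together were at 44.0 and 29.6 FPKM in the Sham libraries and at 5.69 and 5.36 FPKM at 24 h, with Sln at 0 in all 6, the 5 erythroid markers lay between 587 and 1454 FPKM, and the 6 leukocyte markers between 17.0 and 32.8 FPKM. The 6 fibroblast markers lay between 49.4 and 73.7 FPKM and the 6 endothelial markers between 28.0 and 42.9 FPKM. The 4 cycling markers were at or under 1.75 FPKM together, and the 4 adipocyte markers at or under 0.754 FPKM, with Plin1 at 0 in all 6. Mitochondrial transcripts held 31.3% of the FPKM of the AngII 24 h anti-EZH2 library and between 6.72% and 13.9% of the others. The part of these differences in the values below was not tested.

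The Polycomb mRNAs were low in every library. Together the 36 amounted to 63.5, 73.2 and 81.9 FPKM in the IgG libraries and 46.9, 69.4 and 60.4 FPKM in the anti-EZH2 libraries. Of the 36, 31 were above 0 in all 6 libraries and 25 reached the mean of 1 FPKM. The 11 that did not were Mtf2, Phf1, Phf19, Cbx2, Cbx8, Ring1, Pcgf2, Pcgf6, Phc3, Kdm6a and Rybp. If all reads of a gene lay on its longest annotated transcript, the median member had between 24.1 and 42.5 reads in a library, and between 4 and 11 of the 36 members had fewer than 10. These reads are upper estimates, because reads on a shorter transcript count for more FPKM each.

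**Figure D1:**
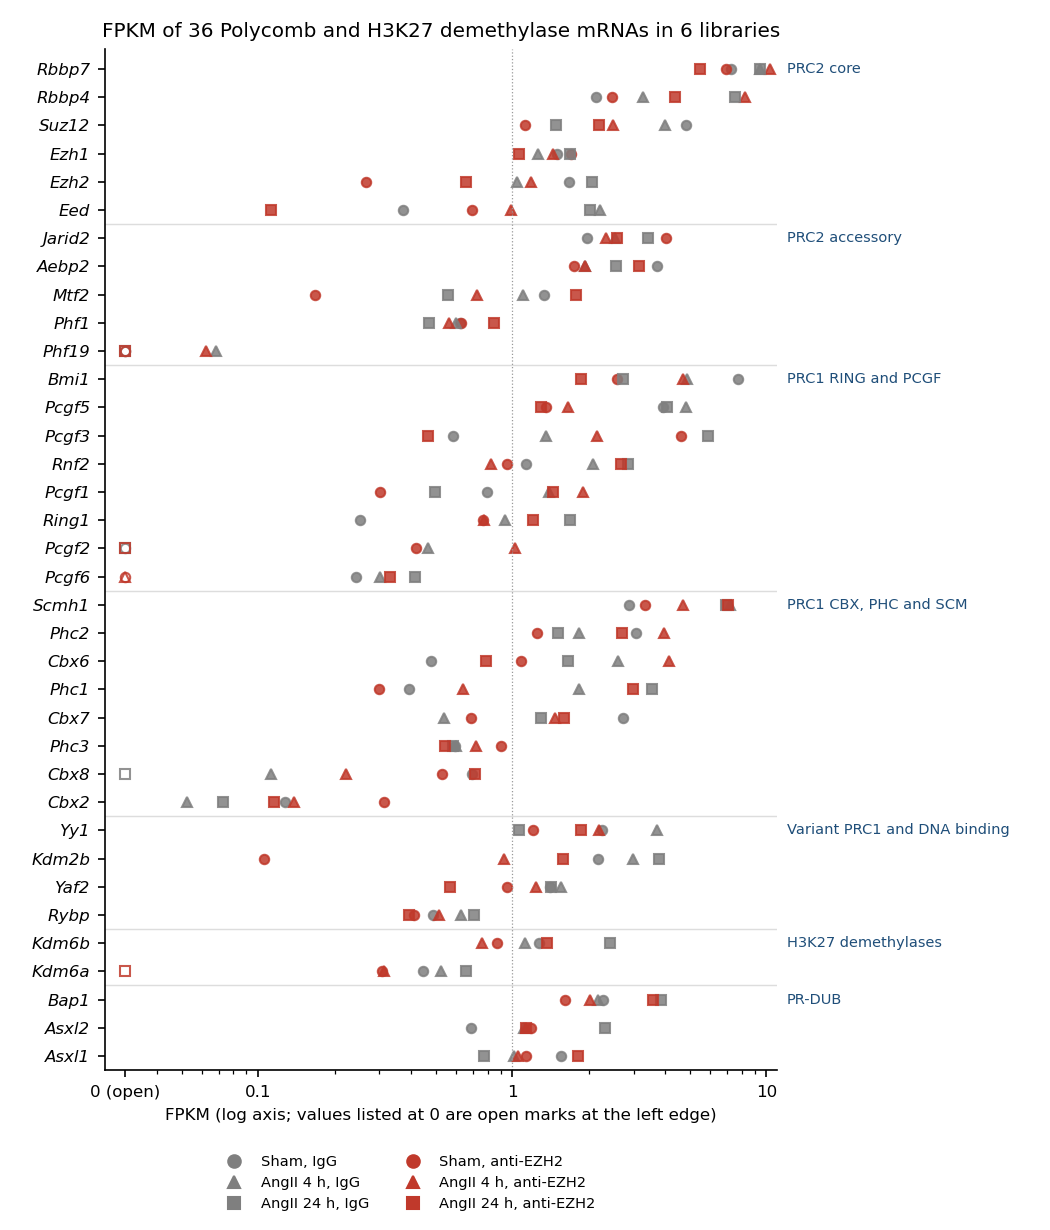
FPKM of the 36 members on a log axis, grouped by role, with grey marks for IgG and red marks for anti-EZH2 and with circles for Sham, triangles for AngII 4 h and squares for AngII 24 h. Each mark is 1 library without replicates, open marks at the left edge are values listed at 0, and the dotted line is 1 FPKM. Rbbp7, at 5.47 to 10.3 FPKM, lies furthest to the right with its 6 marks close together, while Kdm2b, Eed and Pcgf3 spread over more than 10-fold.

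Among the PRC2 core mRNAs, the histone chaperone genes had the highest mean FPKM over the 6 libraries, although Suz12 was above Rbbp4 in the Sham and 4 h IgG libraries. Rbbp7 was at 7.22, 9.41 and 9.39 FPKM in the IgG libraries and at 6.92, 10.3 and 5.47 FPKM in the anti-EZH2 libraries. Its relative ratios were 1.17, 1.19 and 0.892, so that it lay close to the median gene in each group, while its FPKM at 24 h was lower with anti-EZH2. Rbbp4, which encodes the related chaperone, was at 2.14, 3.26 and 7.55 FPKM in the IgG libraries and at 2.46, 8.22 and 4.39 FPKM in the anti-EZH2 libraries. Its relative ratio passed 2-fold at 4 h, at 2.73, and lay at 1.40 in Sham and 0.890 at 24 h.

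The methyltransferase genes themselves were at similar levels in the IgG libraries. Ezh1 was at 1.49, 1.27 and 1.69 FPKM there and at 1.69, 1.44 and 1.06 FPKM in the anti-EZH2 libraries. Ezh2, at 1.67, 1.05 and 2.06 FPKM in the IgG libraries, was at 0.266, 1.19 and 0.659 FPKM in the anti-EZH2 libraries. The deposited intervals of Ezh1 and Ezh2 overlapped in all 6 libraries, so neither could be called the more abundant. Ezh1 stayed within 2-fold between antibodies, with relative ratios of 1.38, 1.23 and 0.962. Ezh2, the mRNA of the protein that was immunoprecipitated, had relative ratios of 0.194, 1.23 and 0.489. These rested on at most 4, 24 and 8 reads against 19, 14 and 20, and even the narrowest interval that these reads allow spanned 1 at 4 h and 24 h. At 4 h that interval was 0.606 to 2.55, so a level 2-fold higher with anti-EZH2 could not be told from an even one at this depth. In Sham it was 0.0481 to 0.585, below 1, but it is the narrowest possible and covers counting error only. In the series table the relative ratios of Ezh2 were 0.345, 1.24 and 0.847, within 2-fold at 24 h, but its mean there was under the filter of 1 FPKM.

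Suz12 and Eed, the subunits that EZH2 needs for activity, gave ratios on both sides of 1. Suz12 was at 4.81, 3.98 and 1.48 FPKM in the IgG libraries and at 1.12, 2.49 and 2.19 FPKM in the anti-EZH2 libraries, with relative ratios of 0.285, 0.674 and 2.26. In the series table, which the authors made from the same libraries, its relative ratios were 1.20, 0.806 and 0.505, on the other side of 1 in Sham and at 24 h. Eed was at 0.372, 2.21 and 2.03 FPKM in the IgG libraries and at 0.694, 0.987 and 0.112 FPKM in the anti-EZH2 libraries. Its relative ratios of 2.27, 0.482 and 0.0848 came from at most 7, 15 and 1 reads against 3, 22 and 14. The order of the 3 groups for Eed was the same in the series table, at 1.65, 0.490 and 0.0381. The means of Suz12 and Eed in the series table were under the filter of 1 FPKM.

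Of the PRC2 accessory mRNAs, Jarid2 and Aebp2 were the only 2 of 5 that reached the mean of 1 FPKM. Jarid2, which encodes a partner that helps to bring PRC2 to chromatin, was at 1.96, 2.54 and 3.40 FPKM in the IgG libraries and at 4.01, 2.33 and 2.59 FPKM in the anti-EZH2 libraries. Only the Sham group passed 2-fold, with a relative ratio of 2.49 against 0.993 and 1.16 in the AngII groups. Aebp2 was within 2-fold between antibodies, with relative ratios of 0.573, 1.08 and 1.90, but the series table gave 2.33 at 24 h. The lowest of the group was Phf19, which was listed at 0 in 4 libraries and reached at most 0.0685 FPKM. Mtf2 and Phf1, below the mean of 1 FPKM, ranged from 0.168 to 1.79 and from 0.471 to 0.845 FPKM.

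Among the RING and PCGF mRNAs, Pcgf5 was the member whose antibody difference repeated in every group. Pcgf5, on chromosome 19 at 36379067 to 36456192 (mm10), encodes a PCGF protein of variant PRC1, the form that needs no CBX protein. It was at 3.93, 4.84 and 4.05 FPKM in the IgG libraries and at 1.35, 1.65 and 1.29 FPKM in the anti-EZH2 libraries. Every IgG library was thus above every anti-EZH2 library, and within an antibody the 3 groups differed little. The relative ratios were 0.420, 0.369 and 0.489, below 2-fold in all 3 groups. Pcgf5 was the only one of the 25 members of which this was true, beside 0.49% of all genes tested. At 4 h the deposited FPKM intervals, 3.16 to 6.51 for IgG and 0.827 to 2.48 for anti-EZH2, lay apart, and Pcgf5 was the only one of the 25 members with intervals apart for a ratio past 2-fold in any group. The narrowest counting intervals, exact 95% intervals that cover counting error only, were 0.291 to 0.594, 0.279 to 0.485 and 0.333 to 0.728. In the series table the relative ratios of Pcgf5 were 0.633, 0.336 and 0.318, under 1 in all groups but past 2-fold only at 4 h and 24 h.

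Pcgf3, another PCGF gene of variant PRC1, had no such constancy. It was at 0.585, 1.35 and 5.87 FPKM in the IgG libraries and at 4.63, 2.15 and 0.464 FPKM in the anti-EZH2 libraries. The relative ratio went from 9.63 in Sham through 1.72 at 4 h to 0.121 at 24 h, and the series table gave 4.56, 1.07 and 0.126. At each end the gene was high in 1 antibody and low in the other, and which antibody was high exchanged between Sham and 24 h.

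Bmi1, which encodes the PCGF subunit best known for keeping stem cells dividing, was at 7.73, 4.88 and 2.73 FPKM in the IgG libraries and at 2.58, 4.69 and 1.86 FPKM in the anti-EZH2 libraries. Its relative ratio was past 2-fold in Sham only, at 0.407, with 1.04 in each AngII group. Pcgf1 was at 0.797, 1.40 and 0.495 FPKM in the IgG libraries and at 0.303, 1.89 and 1.44 FPKM in the anti-EZH2 libraries, on no more than 11 reads in a library. Its relative ratios were 0.462, 1.46 and 4.46, and all 3 narrowest intervals spanned 1.

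Rnf2, a ubiquitin ligase subunit, was at 1.13, 2.07 and 2.85 FPKM in the IgG libraries and at 0.950, 0.822 and 2.68 FPKM in the anti-EZH2 libraries. Its relative ratio was 0.430 at 4 h and within 2-fold in the other groups, at 1.03 and 1.44. Its paralogue Ring1 was lower than Rnf2 in all 6 libraries, by 1.06-fold to 4.47-fold, with overlapping intervals throughout. The other members of the group, Pcgf2 and Pcgf6, were listed at 0 in 3 and 2 libraries and reached at most 1.03 and 0.415 FPKM.

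Of the CBX, polyhomeotic and SCM mRNAs of canonical PRC1, Scmh1 had the highest mean, at 2.88, 7.20 and 6.95 FPKM in the IgG libraries and 3.33, 4.70 and 7.07 FPKM in the anti-EZH2 libraries. Cbx2 had the lowest mean, between 0.0528 and 0.313 FPKM. Scmh1 stayed within 2-fold between antibodies, with relative ratios of 1.41, 0.704 and 1.56, although the series table gave 0.427 at 24 h.

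Phc2, which encodes a polyhomeotic protein that links PRC1 complexes to each other, was at 3.06, 1.84 and 1.51 FPKM in the IgG libraries and at 1.25, 3.96 and 2.70 FPKM in the anti-EZH2 libraries. Its relative ratios were 0.498, 2.33 and 2.74, lower than IgG in Sham and higher in both AngII groups. Cbx7, a reader of methylated lysine 27, was at 2.73, 0.537 and 1.30 FPKM in the IgG libraries and at 0.688, 1.48 and 1.59 FPKM in the anti-EZH2 libraries. Its relative ratios of 0.307, 2.97 and 1.87 followed the same order of sides as those of Phc2. In the series table the ratios were 0.733, 1.51 and 2.55 for Phc2 and 0.408, 2.15 and 2.36 for Cbx7, so that each gene kept its sides of 1 there.

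Cbx6 was at 0.478, 2.61 and 1.65 FPKM in the IgG libraries and at 1.08, 4.13 and 0.788 FPKM in the anti-EZH2 libraries. Its relative ratio was 2.75 in Sham and within 2-fold afterwards, at 1.71 and 0.730, and Cbx6 was the only one of the 36 members without a row in the series table. Phc1 was at 0.391, 1.82 and 3.54 FPKM in the IgG libraries and at 0.300, 0.642 and 3.00 FPKM in the anti-EZH2 libraries. Its relative ratio was 0.381 at 4 h, and 0.933 and 1.30 in the other groups. Phc3, the third polyhomeotic gene, ranged from 0.544 to 0.904 FPKM and Cbx8 from 0, at 24 h with IgG, to 0.713 FPKM.

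Among the mRNAs of the variant PRC1 partners and of the DNA-binding proteins, Kdm2b and Yaf2 were lower with anti-EZH2 in every group and Yy1 was not. Rybp, Yaf2, Kdm2b and Yy1 together were at 6.32, 8.85 and 6.98 FPKM in the IgG libraries and at 2.68, 4.88 and 4.41 FPKM in the anti-EZH2 libraries. Divided by the median gene, the ratio of these sums was 0.516 in Sham, 0.596 at 4 h and 0.967 at 24 h, so that at 24 h it was near that of the median gene.

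Kdm2b encodes a demethylase that binds unmethylated CpG islands and carries variant PRC1 there. It was at 2.17, 2.97 and 3.79 FPKM in the IgG libraries and at 0.105, 0.928 and 1.58 FPKM in the anti-EZH2 libraries. Each IgG library was above each anti-EZH2 library, and the relative ratios were 0.0590, 0.337 and 0.639, past 2-fold in Sham and at 4 h. The Sham value rested on at most 3 reads with anti-EZH2 against 47 with IgG. The series table gave 0.0759, 0.247 and 0.586. Yy1, a zinc finger protein related to the factor that recruits Polycomb in flies, was at 2.25, 3.71 and 1.07 FPKM in the IgG libraries and at 1.21, 2.19 and 1.87 FPKM in the anti-EZH2 libraries. Its relative ratio was 0.656, 0.640 and 2.68, past 2-fold at 24 h only. In the series table Yy1 had 0.622, 0.376 and 2.90, past 2-fold at 4 h as well and in the other direction. Yaf2 and Rybp, paralogues that belong to variant PRC1, stayed within 2-fold between antibodies. Yaf2 was at 1.41, 1.55 and 1.42 FPKM in the IgG libraries and at 0.952, 1.24 and 0.567 FPKM in the anti-EZH2 libraries, so that these did not overlap, and Rybp ranged only from 0.393 to 0.708 FPKM.

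The H3K27 demethylase mRNAs were low, and Kdm6b was close to even between antibodies relative to the median gene. It was at 1.28, 1.12 and 2.42 FPKM in the IgG libraries and at 0.868, 0.757 and 1.37 FPKM in the anti-EZH2 libraries, with relative ratios of 0.825, 0.730 and 0.870. Kdm6a was at 0.444, 0.525 and 0.656 FPKM in the IgG libraries, at 0.308 and 0.314 FPKM in the Sham and 4 h anti-EZH2 libraries, and listed at 0 in the 24 h anti-EZH2 library. The deposited interval of that value runs from 0 to 0. It would lie apart from any IgG interval above 0, so it was not read as a difference. Kdm6b was the higher of these genes in all 6 libraries, by 2.13-fold to 3.68-fold in the 5 with both above 0, with overlapping intervals in those 5.

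The PR-DUB mRNAs were all above the mean of 1 FPKM. Bap1, the deubiquitinase itself, ranged from 1.62 to 3.84 FPKM with relative ratios of 0.864, 1.01 and 1.43. Asxl1 was at 1.56, 1.01 and 0.774 FPKM in the IgG libraries and at 1.13, 1.06 and 1.81 FPKM in the anti-EZH2 libraries, and passed 2-fold at 24 h with a relative ratio of 3.57. Asxl2 was at 0.687, 1.11 and 2.31 FPKM in the IgG libraries and at 1.18, 1.13 and 1.13 FPKM in the anti-EZH2 libraries, and passed 2-fold in Sham with 2.09. The cofactor genes thus passed 2-fold in different groups here, while Bap1 did not pass it. In the series table Asxl1 had 0.427, 1.48 and 3.79, so that it was also below 0.5 in Sham. Asxl2 had 2.38, 1.26 and 0.811 there. The means of Asxl1 and Asxl2 in the series table were under the filter of 1 FPKM.

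Counted over the 25 members, neither direction between the antibodies prevailed in all groups. In Sham, 5 members were above 2-fold (Asxl2, Cbx6, Eed, Jarid2 and Pcgf3), beside 16.6% of all genes tested, and 8 were below (Bmi1, Cbx7, Ezh2, Kdm2b, Pcgf1, Pcgf5, Phc2 and Suz12), beside 13.5%. At 4 h, 3 members were above (Cbx7, Phc2 and Rbbp4), beside 12.8%, and 5 below (Eed, Kdm2b, Pcgf5, Phc1 and Rnf2), beside 10.3%. At 24 h, 5 were above (Asxl1, Pcgf1, Phc2, Suz12 and Yy1), beside 16.1%, and 4 below (Eed, Ezh2, Pcgf3 and Pcgf5), beside 16.4%. As shares of the 25 members these were 20% and 32% in Sham, 12% and 20% at 4 h, and 20% and 16% at 24 h. Among protein-coding genes between 1 and 10 FPKM the shares above and below 2-fold were 15.9% and 16% in Sham, 12.5% and 12.3% at 4 h, and 17.7% and 16.8% at 24 h. Without the division by the median gene the 24 h split was 2 above and 8 below, beside 7.66% and 33.4% of all genes, and the Sham split 3 above and 9 below, beside 12.1% and 20.0%. The median relative ratio of the members was 0.864, 1.04 and 1.04, and that of all genes tested 0.999, 1.01 and 0.998.

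**Figure D2:**
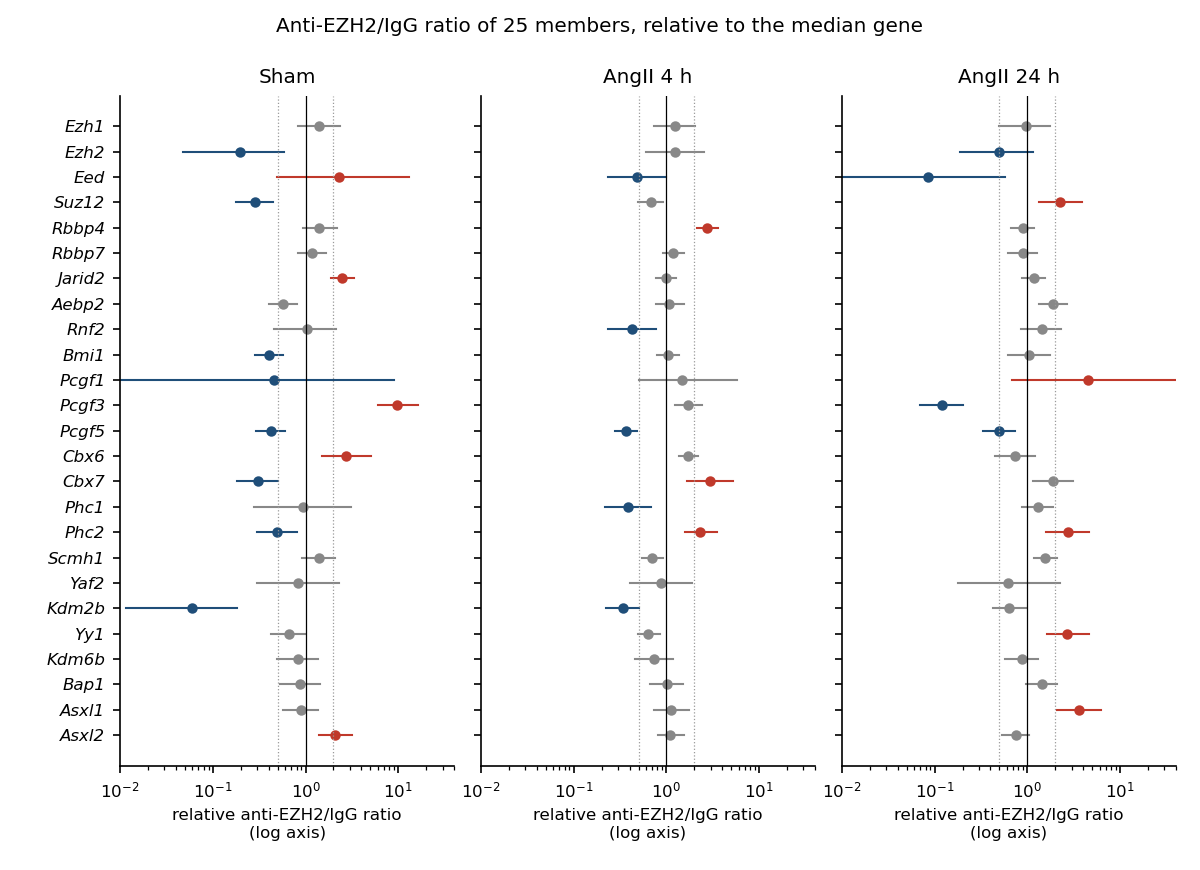
Relative anti-EZH2/IgG ratio (log axis) of the 25 members with a mean of at least 1 FPKM, in Sham, AngII 4 h and AngII 24 h, with the narrowest exact 95% counting interval as a bar (bars are clipped at the panel edges) and with red for ratios above 2, blue for ratios below 0.5 and grey for the rest. Dotted lines mark 2-fold. Pcgf5 is blue in all 3 panels, while Suz12, Phc2, Cbx7, Pcgf1, Pcgf3 and Eed change colour from side to side.

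Across the groups, 18 of the 25 members passed 2-fold in at least 1 group, beside 54% of all genes tested. Ratios past 2-fold in opposite directions in different groups were found for Suz12, Phc2, Eed, Pcgf3, Cbx7 and Pcgf1, that is for 6 of 25 members beside 12.3% of all genes. No member was above 2-fold in all 3 groups, beside 1.73% of all genes. Without regard to size, the relative ratio was under 1 in all 3 groups for Pcgf5, Kdm2b, Yaf2 and Kdm6b, 4 of 25 beside 14.2% of all genes. Divided by the median gene, the 3 IgG and the 3 anti-EZH2 libraries did not overlap for 3 members, Pcgf5, Kdm2b and Yaf2, all lower with anti-EZH2, beside 5.04% of all genes, and for 0 members in the other direction, beside 5.58%.

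How far precision limited the single ratios depended on the interval used. By the narrowest counting interval, 4 members in Sham lay above 1 and 9 below, beside 18% and 19.7% of all genes. At 4 h these were 5 and 8, beside 18.6% and 19.8%, and at 24 h 7 and 4, beside 20.2% and 18%. Of the ratios past 2-fold, the deposited FPKM intervals of the antibodies lay apart for Pcgf5 at 4 h alone. The separate tables and the series table put 22 of 23 members on the same side of 1 in Sham, 21 of 24 at 4 h and 18 of 24 at 24 h, or 95.7%, 87.5% and 75%, where all genes gave 86.2%, 86.5% and 88.5%. The members on another side at 24 h were Scmh1, Suz12, Rnf2, Bmi1, Phc1 and Rbbp4. For this comparison the filter on low values was applied to the separate tables only.

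The mean difference between antibodies over the 3 groups was tested with limma, on log2(FPKM + 1) divided by the median gene and with group and antibody as terms, which left 2 residual degrees of freedom. Of 8637 genes tested, 0 had an adjusted p (Benjamini-Hochberg over all genes) under 0.05, and 545, or 6.31%, had an unadjusted p under 0.05. Pcgf5 and Kdm2b were the 2 of 25 members among these. Pcgf5 differed by −0.84 ± 0.21 (log2, SE), lower with anti-EZH2 in 3 of 3 groups, with a limma p of 0.0157 and an adjusted p of 0.783. Kdm2b differed by −0.88 ± 0.27, lower in 3 of 3 groups, with a limma p of 0.0329 and the same adjusted p. Neither difference held after adjustment, and the fit takes the groups as repeats of 1 antibody difference. The 1 FPKM added before the log makes differences between low values smaller. Without it, the log2 relative ratios were −1.25, −1.44 and −1.03 for Pcgf5 and −4.08, −1.57 and −0.646 for Kdm2b.

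For AngII against Sham, a change was read in the libraries of both antibodies. These came from the same 2 mice per group, so agreement between them is not independent over animals, and in neither is a change a measure of EZH2 binding. In bulk tissue, fewer cells of a type and less RNA per cell cannot be told apart. At 4 h, Cbx6 was the only member above 2-fold in both, with relative changes of 4.60 with IgG and 2.91 with anti-EZH2, 1 of 25 beside 2.5% of all genes, and 0 members were below in both, beside 4.59%. At 24 h, 3 members were above 2-fold in both, beside 3.18% of all genes, and 0 were below, beside 4.47%. Among protein-coding genes between 1 and 10 FPKM these shares were 2.81% above and 3.97% below at 4 h, and 3.93% and 4.49% at 24 h. The members at 24 h were Phc1, with 7.53 and 10.4, Rnf2, with 2.11 and 2.95, and Scmh1, with 2.01 and 2.21. None of the deposited intervals behind these changes lay apart from those of Sham. In the series table Phc1 had relative changes of 8.12 and 5.49 at 24 h, with a mean there of 0.806 FPKM, under the filter. Rnf2 had 2.97 and 1.14 and Scmh1 had 2.84 and 0.955 there, past 2-fold with IgG only. In the same limma fit, with antibody as a term, 0 of the 25 members had an adjusted p under 0.05 at 4 h or 24 h, and the lowest adjusted p was 0.776 and 0.685. At an unadjusted p under 0.05 there was 1 member at 4 h, Cbx6, beside 5.75% of all genes, and 1 at 24 h, Phc1, beside 6.92%. For the times, the fit takes the libraries of the antibodies as repeats. Its p values therefore measure the spread between antibodies and not between animals, and are no test of AngII.

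**Figure D3:**
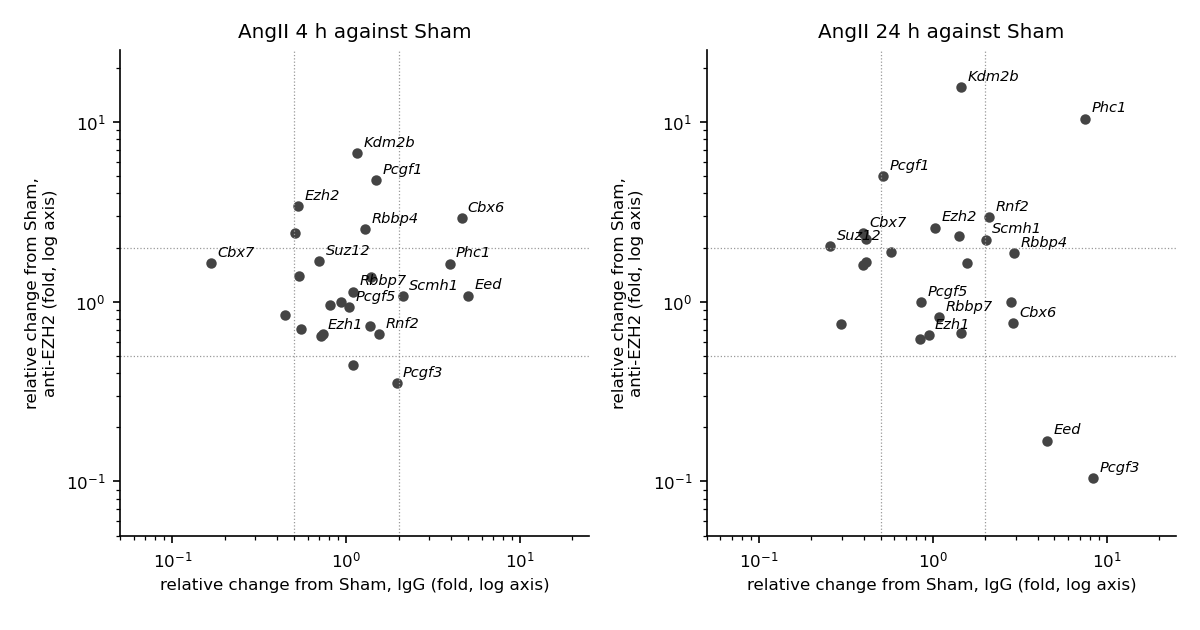
Relative change from Sham in the IgG libraries (horizontal, log axis) and in the anti-EZH2 libraries (vertical, log axis) of the 25 members with a mean of at least 1 FPKM, at AngII 4 h and 24 h. Dotted lines mark 2-fold. Only Cbx6 at 4 h and Phc1, Rnf2 and Scmh1 at 24 h lie in the upper right corner, while Eed and Pcgf3 at 24 h lie at the lower right.

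Read one antibody at a time, the libraries gave more changes. At 4 h, 4 members were above and 2 below 2-fold with IgG, beside 13% and 15.6% of all genes, and 6 and 2 with anti-EZH2, beside 11.8% and 16%. At 24 h these were 8 and 6 with IgG, beside 14.4% and 15.3%, and 10 and 2 with anti-EZH2, beside 15.1% and 20%. At 24 h, 5 of the 25 members passed 2-fold in opposite directions with the 2 antibodies, beside 6.21% of all genes, and at 4 h 0 members did, beside 4.12%. Eed, for example, had a relative change of 4.54 with IgG and 0.169 with anti-EZH2, and Pcgf3 had 8.36 and 0.105. Ezh2 had relative changes of 0.530 and 3.39 at 4 h and of 1.03 and 2.58 at 24 h, while Ezh1 stayed between 0.648 and 0.945 in all 4 comparisons. Divided by the median gene, all 4 AngII libraries lay above both Sham libraries for Scmh1 and Phc1, 2 of 25 beside 8.65% of all genes, and below both for Ezh1, 1 of 25 beside 10%.

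The members differed widely in how steady they were. Over the 6 libraries, each divided by its median gene, the SD of log2 FPKM was 0.13 for Rybp, 0.17 for Rbbp7, 0.32 for Ezh1 and 0.35 for Yaf2. At the other end it was 1.72 for Kdm2b, 1.48 for Phc1, 1.46 for Pcgf3 and 1.43 for Eed. Rybp and Phf1 have 1 transcription start listed in the separate tables, and Kdm2b has 19 and Phc1 has 14. Among 5703 protein-coding genes between 1 and 10 FPKM, genes with 1 start had a median SD of 0.43, those with 2 to 4 starts 0.61, those with 5 to 9 starts 0.74 and those with at least 10 starts 0.74. As a description across genes, which share libraries and are no replicates, Spearman's rho of the SD and the number of starts was 0.335, and over the 31 members above 0 in all libraries it was 0.195. Pcgf3 and Eed had a high SD with 4 and 2 starts, and Rbbp7 a low one with 5.

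**Figure D4:**
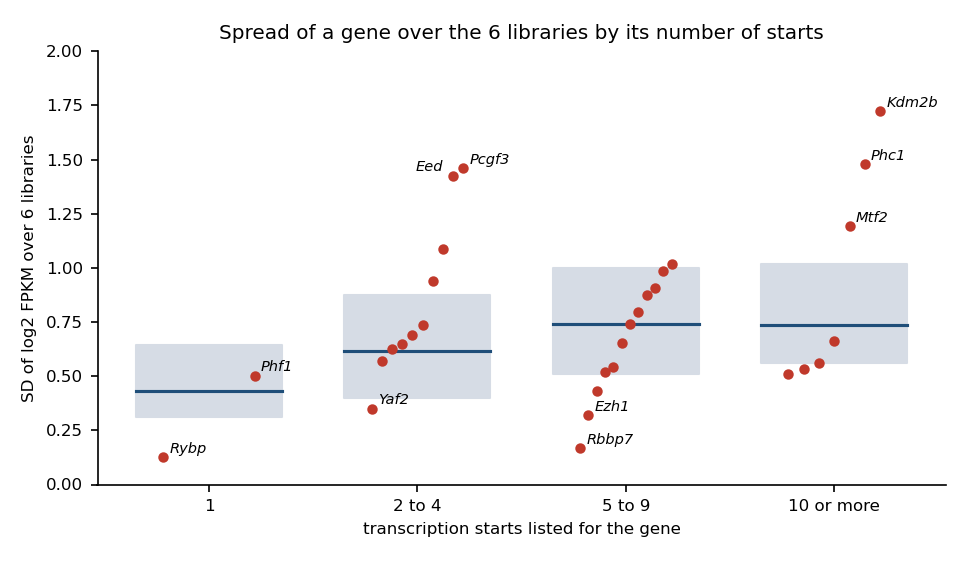
SD of log2 FPKM over the 6 libraries (each divided by its median gene) by the number of transcription starts listed for a gene. Bars show the middle 50% and lines the median of protein-coding genes between 1 and 10 FPKM, and red points are the 31 members above 0 in all libraries. Rybp, at 0.13 with 1 start, lies lowest and Kdm2b, at 1.72 with 19 starts, highest.

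Runs of G are letters that PRC2 is known to hold on to in RNA, and the members were compared on them. On the longest protein-coding transcript the 25 members had a median of 11.5 runs of at least 3 G per kb, beside 12.4 for all genes tested, and a longer median transcript, 4213 nt beside 2921 nt. Across the members Spearman's rho of these runs with the relative ratio was 0.21, 0.33 and 0.20, and across all genes −0.06, 0.03 and 0.05, given as descriptions of 25 genes and of at least 6747 genes that share libraries. To show what these letters look like in a member that was below 2-fold in all groups and in a member that was above 2-fold in both AngII groups and below 2-fold in Sham, the 90 bases of 1 coding exon with the most runs are printed for Pcgf5 (GRCm38 chr19:36440044-36440133, plus strand, exon 6 of 9) and Phc2 (chr4:128712155-128712244, plus strand, exon 7 of 15), from GENCODE M21, with the runs GGG and longer in capitals. Over whole transcripts the richest 90 bases held 4 runs in Pcgf5 and 7 in Phc2, beside a median of 5 over 6879 genes tested, and longer transcripts offer more windows. Windows with at least as many runs as the printed one were common when whole transcripts were searched. They were found in 99.3% of these transcripts for the 2 runs of Pcgf5 and in 83.8% for the 4 runs of Phc2 (sense strand). The printed windows were sought within coding exons only, and a share over coding exons was not calculated.
Pcgf5: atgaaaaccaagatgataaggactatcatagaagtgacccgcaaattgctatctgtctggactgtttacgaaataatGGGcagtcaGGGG
Phc2: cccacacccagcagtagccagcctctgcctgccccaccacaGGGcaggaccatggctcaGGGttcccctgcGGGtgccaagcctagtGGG
Over the whole transcript Pcgf5 had 7.14 runs per kb, Ezh2 10.4, Phc2 18.5 and Cbx7 18.6, and each of these genes was below 2-fold in Sham. A link between the runs and the ratios was not tested. The runs are a description of the letters and not of a site.

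Of the other genes of the pathway, a list of partners of PRC2, variant PRC1 and PR-DUB and of the H3K27 acetylation machinery, 32 were found with a single entry and 25 reached the mean of 1 FPKM. Between antibodies 5 of these 25 were above 2-fold and 3 below in Sham, beside 16.6% and 13.5% of all genes. These were 1 and 4 at 4 h, beside 12.8% and 10.3%, and 2 and 8 at 24 h, beside 16.1% and 16.4%. Bcor, the scaffold of a variant PRC1, was below 2-fold in Sham and at 24 h, with relative ratios of 0.0963 and 0.373, but lay at 1.59 at 4 h. Usp7, a deubiquitinase that joins variant PRC1, was above in Sham and at 24 h, with 2.16 and 2.39, and lay at 0.970 at 4 h. Of the others, Lcorl went from 2.62 in Sham to 0.0579 at 24 h, Mbd5 from 6.30 in Sham to 0.349 at 4 h, Mbd6 from 3.66 in Sham to 0.404 and 0.323 afterwards, and Paxip1 from 2.62 at 4 h to 0.295 at 24 h. In the libraries of both antibodies L3mbtl2 was below 2-fold at 4 h, with relative changes of 0.289 and 0.368, and at 24 h Fbrsl1 was above, with 2.23 and 4.17, and Skp1a below, with 0.340 and 0.427.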

How the data were processed

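The authors mixed 2 RIP products per library, prepared stranded libraries, mapped the reads to mm10 with TopHat2 (per the labels) and deposited FPKM, in a separate table of each library and in a series table. The program and annotation behind the FPKM, and how reads shared by similar genes were divided, are not given in the sources used here. The separate tables also give an interval for each FPKM, and some deposited lower bounds hold a placeholder (the largest storable number) that was read as no interval. Groups were taken from the labels. Before any fold, 787 entries under 0.001 FPKM were taken as 0, and 8637 genes with a mean of at least 1 FPKM were read for folds. All 36 members were matched by symbol in the separate tables and 35 in the series table. No pseudocount was used for the main folds, and a gene with a 0 got no fold. The limma fit used log2(FPKM + 1). Fragments per library were inferred from FPKM steps of genes with 1 transcript, where between 69.3% and 72.5% of values were whole to within 0.1 reads. Reads of a member were then set on its longest GENCODE M21 transcript, and exact Clopper-Pearson 95% intervals of the ratio were calculated. The members and lists were chosen with earlier results of these data known. Members named with a value in every library were the methyltransferases, the demethylases, Eed, Suz12 and each member past 2-fold in a comparison between antibodies or in both antibodies over time. Other pathway genes were named only where past 2-fold in both antibodies over time or in at least 2 groups between antibodies. The results were recomputed under 6 alternatives. The limma 3.58.1 fit (R 4.3.3, trended variance), the comparison of non-overlapping libraries, the counting interval and the split of genes between 1 and 10 FPKM were chosen after seeing the data. Tools were pandas 2.3.3 and scipy 1.17.1 for the values and matplotlib 3.10.9 for the plots, under Python 3.11.15 with numpy 2.4.6. The fold and limma procedures were tested on simulated data. The changes planted there were larger than 2-fold, and for the folds lay only in genes above a mean of 5 FPKM. Changes near 2-fold in low genes, such as most members, were not simulated.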

Additional observations from a re-analysis of the deposited data

Results flagged for a closer look

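For 6 members the relative anti-EZH2/IgG ratio was past 2-fold in one direction in Sham and past 2-fold in the other direction in an AngII group. The difference of log2 relative ratios, AngII minus Sham, was −2.24 at 4 h and −4.74 at 24 h for Eed, and −6.31 at 24 h for Pcgf3. It was 2.22 at 4 h and 2.46 at 24 h for Phc2, 3.27 at 4 h for Cbx7, 2.99 at 24 h for Suz12 and 3.27 at 24 h for Pcgf1. None of these differences was tested, since each group had 1 library per antibody. In Sham the narrowest counting interval spanned 1 for Eed, at 0.492 to 12.9, and for Pcgf1, at 0.00783 to 8.88. Among all genes, 12.3% had ratios past 2-fold in opposite directions in different groups, which also counts reversals between 4 h and 24 h. In the series table the difference at 24 h had the other sign for Suz12, whose ratios there were 1.20 in Sham and 0.505 at 24 h. Eed and Phc2 were within 2-fold in Sham there, at 1.65 and 0.733, and Pcgf1 had no Sham ratio. The means of Suz12, Eed and Pcgf1 in the series table were under the filter of 1 FPKM. Pcgf3, at 4.56 in Sham and 0.126 at 24 h, stayed past 2-fold in both directions. So did Cbx7, at 0.408 in Sham and 2.15 at 4 h.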

How the results depend on the processing

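With 1 library per group and antibody, leaving out a replicate was not possible. A paired analysis with the group as a block, chosen after seeing the data, left 0 of 25 members with a limma adjusted p under 0.05 between antibodies, and 2 at an unadjusted p. Of 60 recomputed counts 22 stayed within 1.5 times and 38 did not. The 22 include counts of 0 that stayed at 0. In what follows, counts of members above and below 2-fold between antibodies are in the order Sham, 4 h and 24 h. Requiring deposited intervals to lie apart left 0, 0 and 0 above, beside 1.58%, 1.39% and 0.529% of all genes, and 0, 1 and 0 below, beside 1.47%, 0.969% and 3.42%. A mean of at least 5 FPKM left 2 members, Rbbp7 and Scmh1, and 0 calls between antibodies, beside 4.41% to 14.0% of all genes. A pseudocount of 1 FPKM gave 1, 1 and 3 above, beside 12.7%, 9.61% and 11.9%, and 3, 1 and 1 below, beside 6.56%, 5.49% and 10.4%. Without division by the median gene there were 3 above in Sham, beside 12.1%, and 2 above and 8 below at 24 h, beside 7.66% and 33.4%. Without the filter on low values there were 6 of 35 members above at 4 h, beside 17.5%, and 8 of 32 at 24 h, beside 21.2%. The series table, with 14 members tested, gave 1 above in Sham, beside 13.9%, and 3 below in Sham and at 4 h, beside 11.9% and 8.59%. For changes in both antibodies, the counts above 2-fold at 4 h and 24 h were 0 and 0 with intervals apart (0.378% and 0.0768% of all genes), 0 and 1 at 5 FPKM (1.77% and 1.41%), 0 and 1 with the pseudocount (1.30% and 1.07%), and 0 and 1 in the series table (1.88% and 7.86%), and the 4 h count was 2 without division by the median gene (5.09%). The member counted in the series table at 24 h was Kdm2b. Phc1 was above 2-fold with both antibodies there, at 8.12 and 5.49, but its mean of 0.806 FPKM was under the filter. Rnf2 and Scmh1 were above 2-fold there with IgG only. The counts below were 2 at 4 h and 1 at 24 h without the filter (6.10% and 5.23%), and 1 at 24 h in the series table (7.01%). The cause of a moved count was not tested. The median member had at most 42.5 reads in any library, and the part of depth in these counts was not tested.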
